A study of Rattus norvegicus with 9 samples.

Results

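The nuclear genes of the mitochondrial respiratory chain were followed in the lungs of 7 Wistar rats, with one microarray value per gene. They were taken by symbol: the Nduf genes of the a, b, c, s and v series, Sdha to Sdhd, the Uqcr genes, the Cox4 to Cox8 genes, the Atp5 genes, Cyc1 and Cycs. A single-symbol probe was found for 81 such genes among 14497 named genes and 28826 probes, and where a gene had several probes the one with the highest mean stood for it. Of the 81, 32 code for complex I subunits, 3 for complex I assembly factors, 4 for complex II, 7 for complex III, 1 for cytochrome c, 16 for complex IV and 16 for complex V, and 2 are pseudogenes (Ndufs6-ps1 and Cox6c-ps1). Cyc1, Cox6b1 and Cox7a1 were not analysed here, since no probe carried their symbol alone. Ndufa4 was counted with complex IV, to which its protein is now assigned.

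The 3 rats with metabolic syndrome (MetS) had taken a 30% sucrose solution as their only drink from weaning for 24 weeks, and the 4 controls had water; chow was the same in both groups. All were Wistar rats, killed after 7 hours of fasting. Male sex is labelled for the MetS rats alone, with none stated for the controls. MetS animal 1 and control animal 1 were each hybridised to 2 arrays, which were averaged, so that n counts animals.

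The respiratory chain passes electrons from NADH (complex I) and succinate (complex II) through ubiquinone, complex III and cytochrome c to oxygen at complex IV. The proton gradient built on the way drives ATP synthesis by complex V. Most subunits are nuclear genes that are used in every tissue, but several complex IV subunits come in isoforms: Cox6a2 and Cox8b in heart and skeletal muscle, Cox6b2 and Cox8c in testis, and Cox4i2 in lung.

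No respiratory chain gene passed the test between MetS and control lungs. The median difference over the 81 genes, MetS minus control, was 0.00 on the log2 scale, with 42 genes reading higher and 39 lower and all differences between -0.17 and 0.29. In limma 0 of the 81 had an adjusted p under 0.05 (0% of all probes), and 0 had an unadjusted p under 0.05, where 13.7% of all probes did (3.82% higher and 9.91% lower) and 13% of the named genes. In none did the 3 MetS values lie apart from the 4 control values, as they did for 11.7% of all probes (4.88% higher and 6.84% lower). The smallest unadjusted p was 0.0874 (limma, adjusted p = 0.414). Over all 28826 probes the median difference was 0.01, and the median size of a difference was 0.11 against 0.06 in the respiratory chain.

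The precision of these comparisons is limited by the number of animals and by their spread, which differed by gene. The standard error ran from 0.06 (Cox8a and Ndufc2) to 0.74 (Cox8b), with a median of 0.12 against 0.10 over all probes. A difference of a given size was thus less readily called in these genes than in most probes. For 69 of the 81 genes the 95% interval of the difference lay inside ±0.5 on the log2 scale. For 79 it lay inside ±1, the exceptions being Cox6a2 and Cox8b. A p that misses the threshold leaves differences within these intervals possible.

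**Figure D1:**
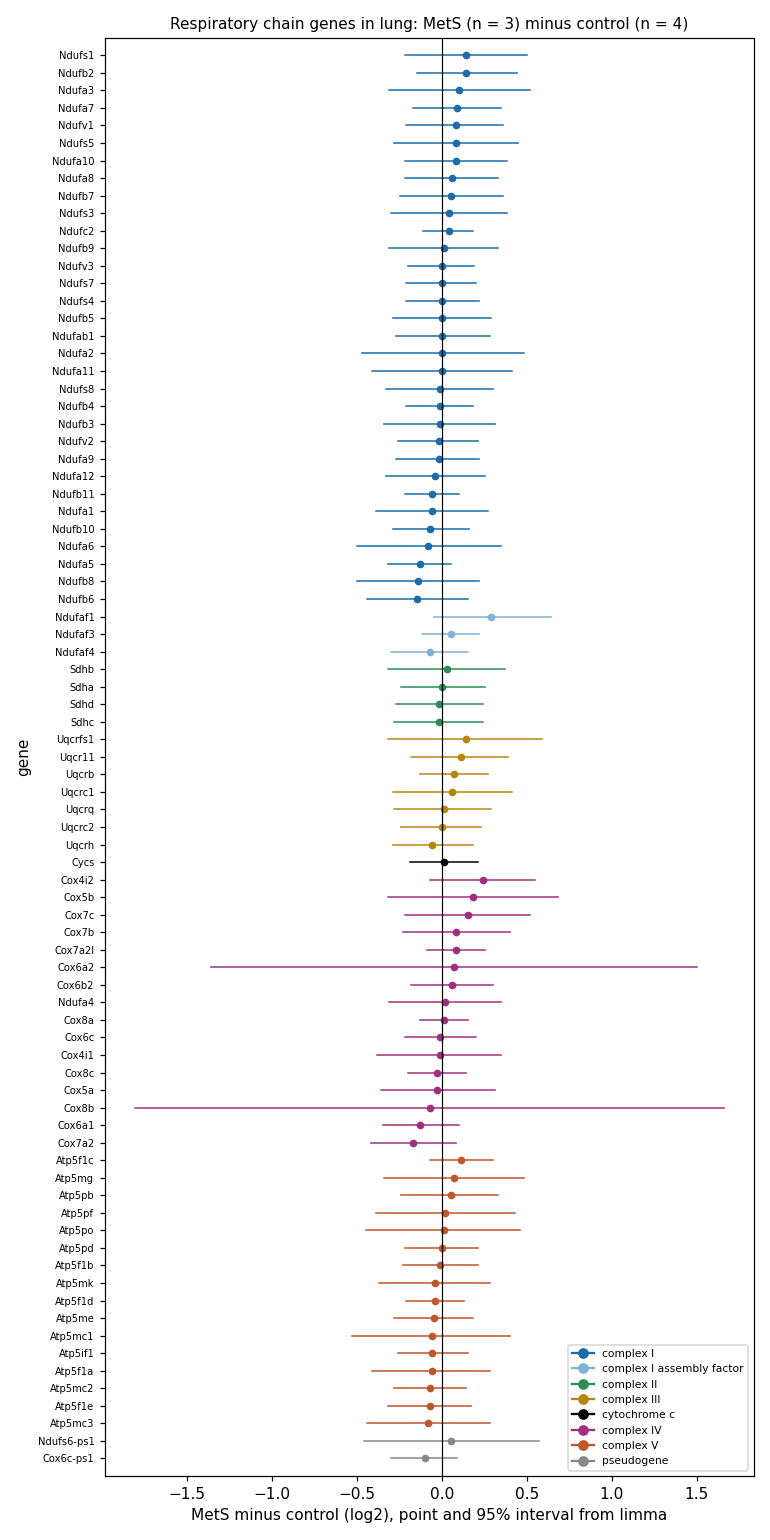
Difference between MetS (n = 3) and control (n = 4) lungs for each of the 81 genes on the log2 scale, with the 95% interval from limma, ordered by complex. All intervals include 0, and those of Cox6a2 and Cox8b are the widest.

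Genes of like brightness give another background. Of the 3547 named genes whose mean lay between the quartiles of the respiratory chain means, 2988 read higher and 559 lower, the median being 0.09, and 6.4% had an unadjusted p under 0.05, as had 7.76% of the named genes above the 25th percentile of probe means. The respiratory chain, at 42 higher and 39 lower, was described beside these genes and not tested against them.

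Complex I oxidises NADH. Its 32 measured subunits were 17 higher and 15 lower, the median being 0.00 and the range -0.15 to 0.14. Ndufs1, the largest iron-sulfur subunit, read 9.96, 9.77 and 9.81 in MetS animals 1 to 3 and 10.09, 9.41, 9.62 and 9.68 in controls 1 to 4. Control 1 was above every MetS animal and the other controls were below them, so the groups overlapped, and the difference was 0.14 (95% interval -0.22 to 0.50, limma, adjusted p = 0.666). Without control 1 the Ndufs1 difference was 0.27 (limma, unadjusted p = 0.0306, adjusted p = 0.333), and 2 of the 81 genes, Ndufs1 and Ndufaf1, had an unadjusted p under 0.05, both higher (4.49% of all probes). Ndufv1, which binds the flavin that takes electrons from NADH, read 10.15, 10.07 and 9.96 against 10.28, 9.92, 9.79 and 9.95.

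Among the accessory subunits of complex I, Ndufa5 had the smallest p. It read 8.89, 8.90 and 8.73 in MetS and 9.01, 8.88, 9.09 and 8.90 in controls, a difference of -0.13 (limma, adjusted p = 0.464). Ndufb6, another accessory subunit, stood at 11.35 ± 0.16 (SD, n = 3) against 11.49 ± 0.20 (SD, n = 4), and Ndufb2 at 8.24 ± 0.20 against 8.09 ± 0.17. In both genes the ranges of the groups overlapped.

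The 3 assembly factors help to build complex I and are no part of it. Ndufaf1 had the widest difference and the smallest p of all 81 genes. It read 7.89, 7.74 and 7.65 in MetS and 7.72, 7.28, 7.20 and 7.67 in controls. Controls 2 and 3 were low, while controls 1 and 4 lay within the range of the MetS animals. The difference was 0.29 (95% interval -0.05 to 0.64, limma, adjusted p = 0.414), and with the spread of each animal's array values in the fit it was -0.08. Ndufaf3 stood at 7.77 ± 0.03 against 7.72 ± 0.10 and Ndufaf4 at 8.82 ± 0.15 against 8.89 ± 0.12.

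**Figure D2:**
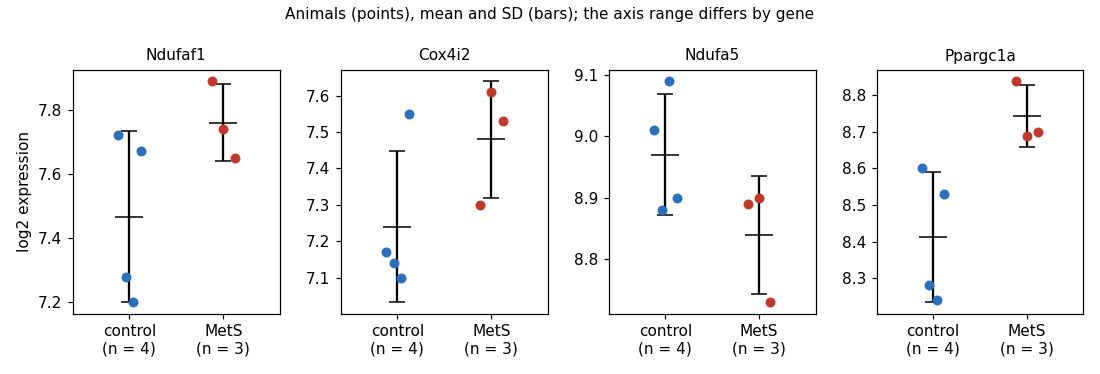
Log2 expression of Ndufaf1, Cox4i2 and Ndufa5, respiratory chain genes with small p-values, and of the coactivator gene Ppargc1a in each animal; bars are the mean and SD. For the first 3 genes the groups overlap, and for Ppargc1a the 3 MetS values lie between 8.69 and 8.84, above the controls at 8.24 to 8.60.

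Complex II, which oxidises succinate, had 4 of 4 genes measured and differences from -0.02 to 0.03. Sdha, the flavin-bearing catalytic subunit, read 10.49, 10.39 and 10.27 in MetS and 10.58, 10.18, 10.35 and 10.41 in controls. The iron-sulfur subunit Sdhb stood at 9.60 ± 0.20 (SD, n = 3) against 9.58 ± 0.23 (SD, n = 4). The membrane anchors Sdhc and Sdhd stood at 11.26 ± 0.10 against 11.28 ± 0.18 and at 9.66 ± 0.16 against 9.67 ± 0.15. The smallest adjusted p in complex II was 0.94 (limma), and each 95% interval lay inside ±0.5.

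Complex III passes electrons from ubiquinone to cytochrome c; 5 of its 7 genes read higher and 2 lower, with a median difference of 0.06. Uqcrfs1, the Rieske iron-sulfur protein, read 9.05, 9.20 and 8.71 in MetS and 9.33, 8.63, 8.70 and 8.73 in controls. Control 1 was the highest animal and stood apart from the other controls, whose values lay below or next to that of MetS animal 3. The Uqcrfs1 difference was 0.14 (95% interval -0.32 to 0.59, limma, adjusted p = 0.747). The core proteins Uqcrc1 and Uqcrc2 stood at 9.55 ± 0.18 against 9.49 ± 0.25 and at 10.75 ± 0.09 against 10.75 ± 0.16. Of the small subunits, Uqcr11 stood at 11.66 ± 0.17 against 11.56 ± 0.18, Uqcrb at 11.99 ± 0.05 against 11.91 ± 0.14 and Uqcrh at 11.54 ± 0.12 against 11.60 ± 0.14. Cycs, the electron carrier cytochrome c, read 11.37, 11.13 and 11.13 in MetS and 11.30, 11.12, 11.13 and 11.22 in controls.

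Complex IV reduces oxygen to water. Of its 16 genes 9 read higher and 7 lower, with a median difference of 0.01. Cox4i2, the lung isoform of subunit 4, which hypoxia is known to raise in other settings, read 7.30, 7.61 and 7.53 in MetS and 7.17, 7.14, 7.10 and 7.55 in controls. Controls 1 to 3 lay below every MetS animal and control 4 among the MetS animals. The difference was 0.24 (95% interval -0.07 to 0.55, limma, adjusted p = 0.436), and without control 4 it was 0.35 (limma, unadjusted p = 0.00935, adjusted p = 0.105), the only one of the 81 genes then under 0.05 unadjusted (6.99% of all probes higher). With the array spread in the fit it was 0.06. The general isoform Cox4i1 stood at 10.89 ± 0.24 against 10.91 ± 0.23.

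The other general subunits of complex IV also overlapped between the groups. Cox5a read 10.17, 9.92 and 9.82 in MetS and 10.31, 9.79, 9.86 and 10.02 in controls, and Cox5b stood at 8.81 ± 0.20 (SD, n = 3) against 8.63 ± 0.39 (SD, n = 4). Cox7a2, the general form of subunit 7a, had the lowest difference of all 81 genes at -0.17, from 12.14, 12.01 and 11.75 in MetS and 12.25, 12.03, 12.04 and 12.23 in controls (limma, adjusted p = 0.491). Cox7a2l, a factor that joins complexes III and IV into supercomplexes, stood at 11.82 ± 0.11 against 11.74 ± 0.07. Cox8a, the general form of subunit 8, varied least of all: its values ran from 11.99 to 12.11 over the 7 animals. Cox7b stood at 11.37 ± 0.23 against 11.28 ± 0.17, and Ndufa4 at 11.65 ± 0.13 against 11.63 ± 0.25. The testis forms Cox6b2 and Cox8c stood at 7.18 ± 0.14 against 7.12 ± 0.15 and at 6.30 ± 0.07 against 6.32 ± 0.09; after a further quantile normalization Cox8c alone of the 81 genes had an unadjusted p under 0.05, at 0.15 higher (8.02% of all probes higher). Cox8c and the pseudogene Cox6c-ps1 were the 2 of the 81 with a mean below the 25th percentile of all probe means (6.48).

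Complex V makes ATP; 5 of its 16 genes read higher and 11 lower, with a median difference of -0.04. Atp5f1a, the alpha subunit, read 10.81, 10.69 and 10.54 in MetS and 11.11, 10.50, 10.66 and 10.68 in controls. Its partners in the catalytic head, Atp5f1b (beta) and Atp5f1c (gamma), stood at 11.89 ± 0.14 (SD, n = 3) against 11.90 ± 0.11 (SD, n = 4) and at 9.09 ± 0.05 against 8.97 ± 0.12. Atp5f1c had the smallest p in the complex, with a difference of 0.11 (95% interval -0.07 to 0.30, limma, adjusted p = 0.513). Atp5mc1, Atp5mc2 and Atp5mc3, whose products are the same proton-carrying c subunit, differed by -0.06, -0.07 and -0.08. Atp5if1, the inhibitor that stops ATP synthase from running backwards, stood at 10.99 ± 0.16 against 11.04 ± 0.08, and the stator subunits Atp5pf and Atp5po at 9.50 ± 0.39 against 9.48 ± 0.13 and at 9.03 ± 0.33 against 9.02 ± 0.27.

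The 2 heart isoforms varied among animals far more than any other gene of the chain. Cox6a2, the heart and muscle form of subunit 6a, read 8.70, 7.50 and 7.68 in MetS and 9.57, 7.45, 7.41 and 7.15 in controls. Cox8b, the heart and muscle form of subunit 8, read 9.01, 7.92 and 7.22 in MetS and 9.99, 6.97, 7.50 and 8.05 in controls. Both were highest in control 1 and next highest in MetS animal 1, so that one animal of each group stood out. Between groups the differences were 0.07 (95% interval -1.36 to 1.50, limma, adjusted p = 0.963) for Cox6a2 and -0.07 (95% interval -1.81 to 1.66, limma, adjusted p = 0.969) for Cox8b. The second array gave the same picture: Cox6a2 read 8.64 and 8.77 on the 2 arrays of MetS animal 1 and 9.52 and 9.61 on those of control 1, and Cox8b read 9.01 and 9.02, and 9.94 and 10.03.

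Their promoters are shown beside those of Cox8a, the general counterpart of Cox8b, and Sdha, because these 4 windows held different motifs. Each sequence is the 250 bases before the gene's start in RefSeq (build GRCr8), written 5′ to 3′ along the gene. Capitals mark matches on either strand to the letters searched: GCGCA and GCGC with any 1 base between them for NRF1 and CCGGAAG for GABP, factors known to drive respiratory genes, GGGCGG for SP1, AAGATGG for YY1, TATAAA for a TATA box, and CTA and TAG with any 4 bases between them for the muscle factor MEF2, which was added after the values were seen. Overlapping matches are merged. The window of Sdha is chr1:30764303-30764552 on the plus strand, that of Cox8a chr1:213833624-213833873 on the minus strand, that of Cox8b chr1:205408274-205408523 on the minus strand and that of Cox6a2 chr1:192219717-192219966 on the minus strand.
Sdha: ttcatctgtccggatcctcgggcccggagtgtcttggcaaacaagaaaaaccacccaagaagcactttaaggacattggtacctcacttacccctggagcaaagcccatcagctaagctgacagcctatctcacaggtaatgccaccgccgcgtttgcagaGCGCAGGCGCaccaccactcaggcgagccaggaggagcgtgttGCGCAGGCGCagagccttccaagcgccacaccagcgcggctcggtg
Cox8a: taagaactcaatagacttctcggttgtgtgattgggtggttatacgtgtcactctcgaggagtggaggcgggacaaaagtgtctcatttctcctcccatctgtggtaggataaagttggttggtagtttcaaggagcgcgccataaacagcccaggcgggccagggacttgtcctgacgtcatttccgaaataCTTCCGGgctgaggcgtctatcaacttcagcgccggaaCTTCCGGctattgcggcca
Cox8b: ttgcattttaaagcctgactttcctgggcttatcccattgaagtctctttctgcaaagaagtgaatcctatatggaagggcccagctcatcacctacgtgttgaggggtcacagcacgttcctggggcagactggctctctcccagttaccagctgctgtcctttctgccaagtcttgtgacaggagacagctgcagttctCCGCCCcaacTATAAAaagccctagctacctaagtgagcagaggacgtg
Cox6a2: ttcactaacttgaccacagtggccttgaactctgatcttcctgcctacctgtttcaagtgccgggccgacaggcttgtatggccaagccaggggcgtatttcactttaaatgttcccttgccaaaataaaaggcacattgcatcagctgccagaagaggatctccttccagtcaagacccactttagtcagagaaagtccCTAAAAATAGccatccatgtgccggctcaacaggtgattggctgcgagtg
Sdha held the NRF1 letters from 89 and from 46 bases before the start, and Cox8a held the GABP letters from 57 and from 19 bases before it. Cox8b held the SP1 and TATA letters at 49 and 39 bases before the start, and Cox6a2 the MEF2 letters at 50. A match is a description of the letters and not a site.

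A promoter was matched for 71 of the 81 genes. The NRF1 letters stood in 11 of these (15.5%), against 6.75% of 11946 promoters of genes on the array and 4.17% of all 27457 promoters. The GABP letters stood in 20 (28.2%), against 11.2% and 7.74%. One or the other was present in 30 of the 71 (42.3%), against 16.8% of the array's genes, and both in 1, Atp5me. The SP1 letters stood in 38% against 47.3% of the array's genes, the YY1 letters in 4.23% against 4.27%, the TATA letters in 7.04% against 11.2% and the MEF2 letters in 2.82% (Cox5b and Cox6a2) against 3.07%. These shares describe base letters and were not tested.

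Markers of heart muscle moved with the heart isoforms. Of 13 measured cardiomyocyte markers 10 had control 1 and MetS animal 1 as the 2 highest of the 7 animals. Actc1, cardiac actin, read 10.72, 8.34 and 8.39 in MetS and 12.06, 7.60, 7.75 and 7.80 in controls. Mb, myoglobin, read 11.18, 7.26 and 7.89 in MetS and 12.19, 7.18, 7.18 and 7.15 in controls. The same held for Myh6, Tnnt2, Tnni3, Ryr2, Csrp3, Pln, Casq2 and Tnnc1. The remaining 3, Myl7, Nppa and Sln, which are high in atrial muscle, did not follow: Nppa ran from 6.60 to 7.06 over all animals. The mean of the 13 was 8.70, 7.19 and 7.16 in MetS and 9.72, 6.99, 7.12 and 6.94 in controls.

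Most markers of skeletal muscle and of fat gave no such pattern. The skeletal muscle markers Myh1, Myh4 and Tnnt3 read 5.36, 6.91 and 6.42 in MetS animal 1 and 5.60, 6.94 and 6.49 in control 1, whereas Ckm, the muscle creatine kinase that heart also uses, read 9.34 and 10.55 there and 8.18 to 8.38 in the other animals. Acta1, skeletal actin, which heart also makes, read 8.47 and 8.89 there and 8.19 to 8.37 in the others. Ucp1, the marker of brown fat, ran from 6.06 to 6.27. The lung label was borne out by Sftpc, the surfactant protein of alveolar cells, at 13.88 to 13.91 in the 7 animals. In whole tissue, fewer cells of a type and less RNA per cell cannot be told apart.

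The 7 animals fell into 2 with high and 5 with low heart markers, so no correlation between the heart isoforms and the markers was computed. Among the 5 low animals Cox6a2 ran from 7.15 to 7.68, and Cox8b from 6.97 to 8.05.

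**Figure D3:**
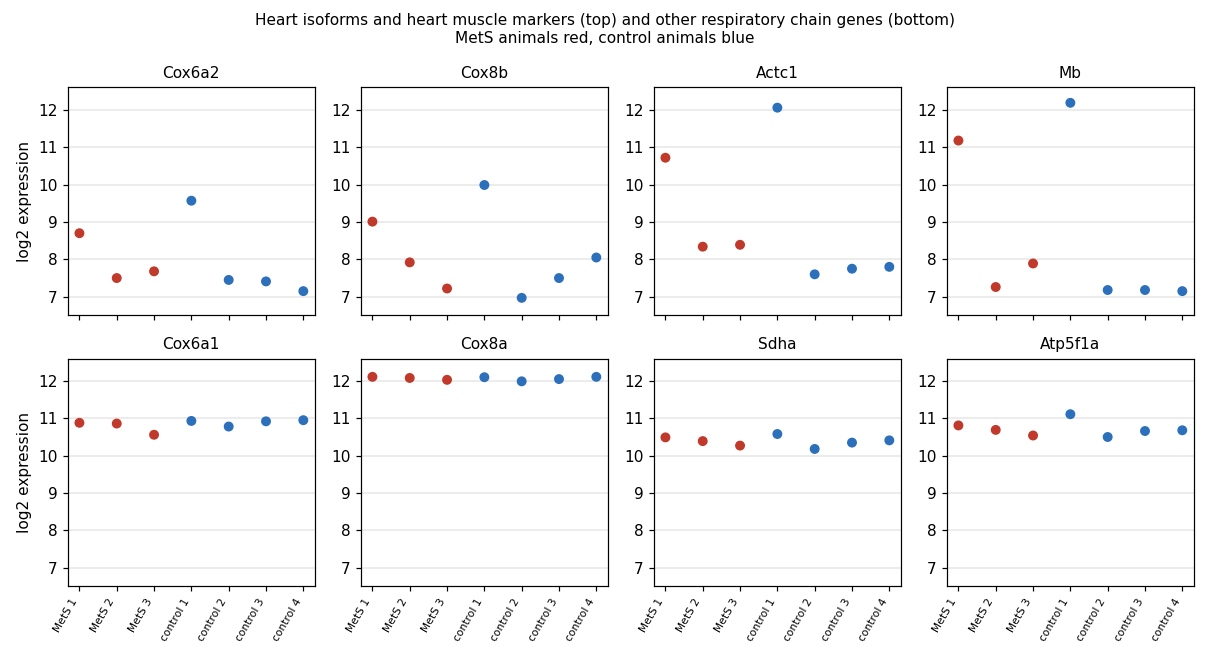
Log2 expression in each animal of the heart isoforms Cox6a2 and Cox8b and the heart muscle markers Actc1 and Mb (top), and of Cox6a1, Cox8a, Sdha and Atp5f1a (bottom), on one axis range. Control 1 and MetS animal 1 stand above the other 5 animals in the top row, and the bottom row varies by less than 1 in every gene.

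The general respiratory chain genes were also high in these 2 animals, by smaller amounts. Of the 81 genes 70 (86.4%) had their highest value in control 1 (37 genes) or MetS animal 1 (33 genes), against 24.7% of all probes and 45.7% of the named genes of like brightness. The trait was shared by genes outside the chain: it held for 65 of the 100 genes of the wider pathway described below. Control 1 and MetS animal 1 were the top 2 animals for 49 of the 81 genes (60.5%), against 7.1% of all probes. By complex this held for 19 of 32 genes of complex I, 4 of 4 of complex II, 5 of 7 of complex III, 7 of 16 of complex IV and 11 of 16 of complex V. Without Cox6a2, Cox8b and the pseudogenes, 67 of 77 genes still had their highest value in one of these 2 animals.

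The median of the 81 genes, each against its control mean, was 0.16 in MetS animal 1, 0.01 in MetS animal 2 and -0.16 in MetS animal 3. In controls 1 to 4 it was 0.14, -0.13, -0.08 and 0.04. The MetS animals thus spanned the whole range over the 7 animals, and the controls most of it. MetS animal 3 was the lowest of its group for 65 of the 81 genes (80.2%) and for 16 of 16 complex V genes. The share was 30.9% of all probes and 40.2% of the named genes of like brightness. By complex, control 1 lay between 0.12 (complex I) and 0.22 (complex II), and MetS animal 3 between -0.10 (complex II) and -0.23 (complex V). Among the named genes of like brightness the same medians were 0.12, 0.08 and 0.07 in MetS animals 1 to 3. In controls 1 to 4 they were 0.05, -0.06, -0.08 and 0.08. Over all probes they lay between -0.01 and 0.01. The genes whose highest value lay elsewhere were Cox4i2 and Ndufa10 (MetS animal 2), Ndufaf4 (control 2), Ndufa5, Cox8c and Cox6c-ps1 (control 3), and Ndufb6, Ndufs4, Uqcrh, Cox6a1 and Cox8a (control 4).

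**Figure D4:**
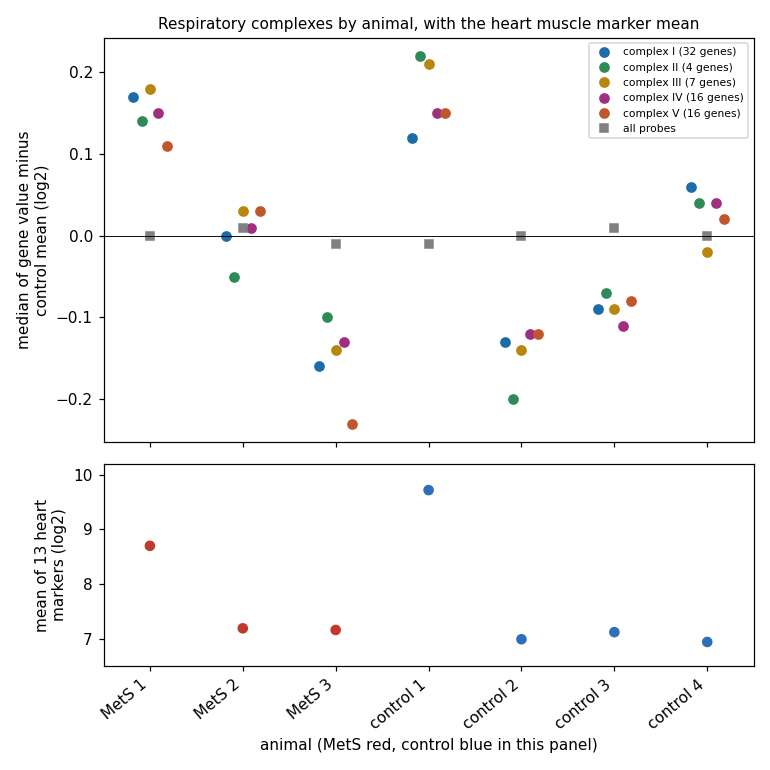
Median over the genes of each complex of the value minus the control mean, by animal (top, log2), and the mean of 13 heart muscle markers (bottom, log2). The 5 complexes lie together in each animal, highest in MetS animal 1 and control 1. The median of all probes, for which the arrays were nearly equal, stays between -0.01 and 0.01.

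The 2 arrays of MetS animal 1 differed by a median of 0.05 in size over the 81 genes, as did those of control 1, and no gene differed by more than 0.38 (Ndufa10). Both animals with high heart markers were the ones with 2 arrays. The part of heart muscle in the level of the general genes was not tested, but the group comparison was repeated without these animals and with the markers in the fit. Without MetS animal 1 and control 1 the median difference was -0.02, with 35 genes higher and 46 lower and 0 at an unadjusted p under 0.05 (6.71% of all probes). For 4 of the 81 the MetS values then lay apart above the controls and for 2 below them, against 13.9% and 11.3% of all probes, or 25.2% in both directions. With the heart marker mean as a covariate the median difference was 0.00, with 0 genes at an unadjusted p under 0.05 (12.9% of all probes).

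The balance of higher and lower genes differed between the fits with and without the SD of an animal's array values. That SD was 1.93, 1.90 and 1.88 in MetS animals 1 to 3 and 1.85, 1.77, 1.76 and 1.88 in controls 1 to 4, so that it largely separated the groups and its part cannot be told apart from theirs. With this SD as a covariate 77 of the 81 genes read lower in MetS and 4 higher (Cox4i2, Cox6b2, Cox7a2l and Cox8c), with a median of -0.19, where all probes had 0.00 and the named genes of like brightness -0.02. From complex I to complex V the medians were -0.20, -0.20, -0.14, -0.23 and -0.20. In that limma fit 3 genes had an unadjusted p under 0.05, all lower (1.87% of all probes lower, 1.68% higher): Cox7a2 at -0.39 (limma, unadjusted p = 0.012, adjusted p = 0.999), Ndufa4 at -0.33 (limma, unadjusted p = 0.0176, adjusted p = 0.999) and Ndufb8 at -0.43 (limma, unadjusted p = 0.0456, adjusted p = 0.999). Without controls 2 and 3, the animals with the smallest SD, 71 genes read lower and 10 higher with a median of -0.10. In that limma fit 0 had an unadjusted p under 0.05 (5.24% of all probes). Controls 2 and 3 also had the lowest medians of the controls for the 81 genes, -0.13 and -0.08, while control 1 stood at 0.14. Their array SD and their low level of these genes cannot be told apart here.

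**Figure D5:**
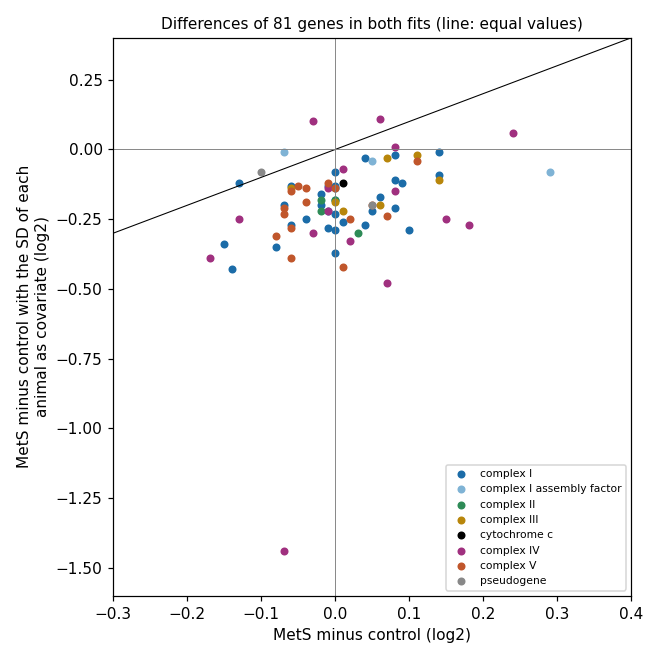
Difference between MetS and control for each of the 81 genes (log2, horizontal) against that difference once array SD was a covariate (log2, vertical); the line marks equal values. Nearly all points lie below the line and below 0 on the vertical axis, with Cox8b at -1.44.

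The wider pathway was followed through 100 measured genes that are no part of the chain itself. They regulate it, assemble it or feed it. Their median difference was 0.07, and 75 read higher and 25 lower. With the array SD in the fit 28 read higher and 72 lower. Of all 14497 named genes 8995 read higher and 5502 lower, with a median of 0.04. With the array SD in the fit 7080 of the named genes read higher and 7417 lower. At an unadjusted p under 0.05, 3 of the 100 pathway genes were higher (3.82% of all probes) and 0 lower (9.91%), and none passed over all probes. Ppargc1a, the coactivator that drives mitochondrial gene expression, read 8.84, 8.69 and 8.70 in MetS and 8.60, 8.28, 8.24 and 8.53 in controls. The groups did not overlap, and the difference was 0.33 with a standard error of 0.11, or 1.26-fold (limma, unadjusted p = 0.0178, adjusted p = 0.324). It was 0.08 with the array SD in the fit and 0.17 without controls 2 and 3.

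Ppargc1a was one of 16 measured regulators, of which 15 read higher and 1 lower with a median of 0.10; with the array SD in the fit 7 read higher and 9 lower, with a median of -0.01. In 3 of the 16, Ppargc1a, Gabpa and Ppard, the MetS values lay above all controls. Over all 100 pathway genes this held for 4, and over all probes for 4.88%. Gabpa, the DNA-binding subunit of GABP, stood at 8.40 ± 0.06 (SD, n = 3) against 8.21 ± 0.20 (SD, n = 4; limma, adjusted p = 0.462), Tfam, the factor that packs and transcribes mitochondrial DNA, at 8.10 ± 0.25 against 7.97 ± 0.14, and Nrf1 at 9.09 ± 0.04 against 9.07 ± 0.04. Esrra, a nuclear receptor partner of Ppargc1a, stood at 7.81 ± 0.03 against 7.80 ± 0.02, and Ppard, a nuclear receptor for fatty acids, at 8.89 ± 0.04 against 8.79 ± 0.06 (limma, adjusted p = 0.477).

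Of the assembly factors of complex V, Atpaf2 stood at 8.18 ± 0.11 (SD, n = 3) against 7.90 ± 0.15 (SD, n = 4), and the groups did not overlap (difference 0.28, limma, unadjusted p = 0.0228, adjusted p = 0.327). Sqor, which feeds electrons from sulfide into ubiquinone, stood at 11.59 ± 0.07 against 11.38 ± 0.14 (limma, unadjusted p = 0.0444, adjusted p = 0.358). With the array SD in the fit these differences were 0.06 and 0.03. Of the 14 measured assembly factors of complex IV 12 read higher and 2 lower with a median of 0.15. Of 12 genes of coenzyme Q synthesis 10 read higher and 2 lower with a median of 0.06. None of either list had an unadjusted p under 0.05 (13.7% of all probes). With the array SD in the fit the first list had 5 higher and 9 lower (median -0.06) and the second 1 higher and 11 lower (median -0.06).

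Of 11 measured enzymes of the TCA cycle 7 read higher and 4 lower, with a median of 0.10 and none at an unadjusted p under 0.05 (13.7% of all probes). It was 3 higher and 8 lower (median -0.06) with the array SD in the fit, and 4 higher and 7 lower (median -0.03) without controls 2 and 3. Citrate synthase (Cs), often used to gauge mitochondrial content, read 10.53, 10.43 and 10.60 in MetS and 10.74, 10.34, 10.21 and 10.40 in controls, and was thus again highest in control 1. Slc25a4, the ADP/ATP carrier of heart and muscle, read 10.68, 10.49 and 10.25 against 11.16, 10.09, 10.25 and 10.50, while the general carrier Slc25a5 stood at 12.25 ± 0.10 against 12.25 ± 0.02. Ucp2, an uncoupling protein of many tissues, stood at 12.13 ± 0.02 against 11.91 ± 0.19 (limma, adjusted p = 0.397).

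For 10 of the 81 genes a further probe was present, and none of these 10 probes had an unadjusted p under 0.05 (13.7% of all probes). Ndufs5 had the widest gap between probes, with differences of 0.08 on the probe used and 0.24 on the other, and the sign differed between the probes of Atp5pd, Cox5a, Ndufb4 and Ndufv3, all within 0.10 of 0. Across the animals the further probe correlated with the one used at 0.0758 for Ndufv3, 0.635 for Cox5a and 0.681 for Ndufb4. For the other genes with a further probe it correlated at 0.859 or above. Ndufs6-ps1 read 10.15 ± 0.46 against 10.10 ± 0.23; its probe may share sequence with Ndufs6, so the value is uncertain, as it is for Cox6c-ps1 at 6.09 ± 0.14 against 6.19 ± 0.06.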

How the data were processed

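Lung RNA extracted with Trizol (RNA integrity number of at least 6) was labelled from 50 ng and hybridised to Affymetrix arrays, per the labels' protocols. Values were deposited as log2, 1 per probe and array; the submitters' processing notes name R 2.11.0, RMA and limma, with no role or order. No genome build is given in the sources used. Arrays of 1 animal were averaged, and MetS minus control was fitted over all 28826 probes with lmFit and eBayes (limma 3.58.1, R 4.3.3; 7.28 degrees of freedom), with Benjamini-Hochberg adjustment. Intervals are at 95%. Probe names came from the platform's annotation; 15209 probes (52.8%) had 1 symbol, and all 81 members matched a RefSeq symbol of assembly GRCr8. Probe means served to choose 1 probe per gene, to find genes of like brightness and to mark dim probes. The 13 heart markers were averaged within each animal. Levels of different genes were not otherwise compared. The fit was first tested on simulated data. Tables were made with Python 3.11.15, pandas 2.3.3, numpy 2.4.6 and scipy 1.17.1, figures with matplotlib 3.10.9.

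The members, gene lists, motifs and alternatives were chosen with earlier results of these data known. Named were the members whose groups do not overlap (there were none), in each complex and direction the 2 with the smallest p, the isoforms, and the catalytic core; the other members in the text were added after their values were seen. So were the pathway genes given beyond the 2 of a list with the smallest p in each direction. A planned correlation of the heart isoforms with heart markers was not computed, since the animals fell into separate clusters. Alternatives were the first array alone, the 9 arrays with animal as random block, other normalizations, the array SD as a covariate, a filter on dim probes, other moderation, a replicate block, leaving out animals, the mean of a gene's probes and current symbols. Fits without MetS animal 1 and control 1, and with the heart marker mean, were added after seeing the data.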

Additional observations from a re-analysis of the deposited data

Results flagged for a closer look

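In each gene the highest or lowest of the 4 controls was set against the other 3, for the 81 respiratory chain genes and the 13 heart muscle markers. A gap to the nearest above Dixon's 95% critical value marked an animal as apart; chance gives about 1 such gene in 20, and 6 of the 81 genes and 9 of the 13 markers had one, as counted over 94 genes. Control 1 stood apart in 11 of the 15. The genes were measured in the same 4 animals and are not independent, so these counts cannot be read against that rate. No share over all probes is given here.

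Control 1 stood above the others for Cox6a2 (9.57 against 7.15 to 7.45), Uqcrfs1 (9.33 against 8.63 to 8.73) and the pseudogene Ndufs6-ps1 (10.44 against 9.95 to 10.02). Control 4 stood above the others for Cox4i2 (7.55 against 7.10 to 7.17). Control 2 stood below the others for Cox6a1 (10.78 against 10.92 to 10.95) and Ndufv2 (11.62 against 11.86).

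Among the heart muscle markers control 1 stood above the others for Actc1 (12.06 against 7.60 to 7.80), Myh6 (11.13 against 6.92 to 7.34), Tnnt2 (11.26 against 7.27 to 7.39), Tnni3 (9.97 against 5.85 to 5.99), Mb (12.19 against 7.15 to 7.18), Pln (11.02 against 6.87 to 7.30), Casq2 (9.17 against 5.89 to 6.39) and Tnnc1 (10.17 against 6.90 to 7.06). Control 3 stood above the others for Sln (7.63 against 7.45 to 7.47).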

How the results depend on the processing

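Over 21 alternative settings no respiratory chain gene reached an adjusted p under 0.05 in limma, and 0 of the 81 did so with the replicate block. The count of genes at an unadjusted p under 0.05, 0 higher and 0 lower, became 1 higher (Cox8c) after a further quantile normalization and 3 lower with the array SD in the fit. Leaving out 1 animal gave between 0 and 2 higher: 2 without control 1 (Ndufs1 and Ndufaf1) and 1 without control 4 (Cox4i2). Groups that did not overlap numbered 1 higher and 1 lower after quantile normalization (9% and 5.25% of all probes), 4 higher and 2 lower without MetS animal 1 and control 1 (13.9% and 11.3%), and 6 lower without controls 2 and 3 (9.3%). Leaving out 1 animal gave 0 to 4 higher (4 without MetS animal 3, against 10.8% of all probes, or control 1, against 8.45%) and 0 to 2 lower (2 without MetS animal 1, against 8.63%, or control 2, against 7.56%). The median over the 81 genes ran from -0.08 without MetS animal 1 to 0.08 without MetS animal 3, and it moved beyond the spread of the animals only with the array SD in the fit, to -0.19; that setting gave -0.20 for complex I, -0.04 for its assembly factors, -0.20 for complex II, -0.14 for complex III, -0.23 for complex IV and -0.20 for complex V. Of 41 named genes the difference moved by more than 1 SD for 23 with the array SD, for 3 without controls 2 and 3 and for 2 after quantile normalization, and for none under the other settings.

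Over all probes the 1102 higher and 2857 lower at an unadjusted p under 0.05 became 2312 higher after quantile normalization, 483 higher and 540 lower with the array SD, 1131 lower among brighter probes, 413 higher and 1097 lower without controls 2 and 3, and 1040 lower without MetS animal 1 and control 1. Leaving out 1 animal gave 524 (without control 2) to 2016 higher (without control 4) and 1354 (without MetS animal 1) to 4164 lower (without control 4); the higher count was 666 without MetS animal 2 and 611 when control 3 was left out, and the lower count was 1502, 1862 and 1710 on leaving out MetS animal 2, control 2 and control 3. With the replicate block 2204 were higher and 4543 lower, 138 and 1879 of them at an adjusted p under 0.05, and 2 respiratory chain genes, Ndufaf1 and Cox4i2, were higher at an unadjusted p under 0.05. The numbers were not taken as pairs, since the deviations of same-numbered animals correlated at 0.271, -0.118 and 0.339, and only 1 of the 3 MetS animals correlated best with its own number. The cause was not tested. With 7 animals, differences within the intervals given remain possible.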
